A study of Mus musculus with 22 samples.

Results

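DNA methylation was followed at the genes that handle alcohol, acetaldehyde and retinaldehyde in the forebrains of mouse embryos exposed to ethanol before implantation. The set held 10 genes, Adh1, Adh5, Adh7, Aldh2, Aldh1a1, Aldh1a2, Aldh1a3, Aldh1b1, Cat and Cyp2e1, of 20558 protein-coding RefSeq genes on chromosomes 1 to 19. Each gene was taken from 5 kb upstream of its first transcription start site to 1 kb past its end on GRCm38, and every CpG with at least 10 reads was used. A CpG was analysed where at least 5 controls and at least 5 EtOH-exposed embryos had a value. By that measure 8 of the 10 genes (80%) were covered, against 15872 of all genes (77.2%). Adh7 and Cyp2e1 were not covered.

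The oxidation of alcohols runs in a pair of steps. Alcohol dehydrogenases turn an alcohol into an aldehyde, and aldehyde dehydrogenases turn the aldehyde into an acid. Adh1 encodes the main ethanol-oxidising enzyme of the liver, Aldh2 the mitochondrial enzyme that clears acetaldehyde, and Aldh1b1 a related mitochondrial enzyme that also accepts acetaldehyde. Cat (catalase) and Cyp2e1 (a cytochrome P450) are alternative routes from ethanol to acetaldehyde, and catalase is thought to carry much of that step in brain. The same chemistry makes retinoic acid from vitamin A: Adh7 can oxidise retinol, and Aldh1a1, Aldh1a2 and Aldh1a3 oxidise retinaldehyde to retinoic acid, a signal that patterns the embryonic brain and eye. Adh5 oxidises the glutathione adduct of formaldehyde and is expressed in nearly every tissue.

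The study asked whether a short ethanol exposure of cleavage-stage embryos left a lasting mark on forebrain DNA methylation. Pregnant C57BL/6 females were given a pair of subcutaneous injections of ethanol before implantation, or saline for the controls, and the forebrain of each wild-type embryo was collected at embryonic day 10.5. Methylation was measured by rapid reduced representation bisulfite sequencing (rRRBS), which sequences fragments that the enzyme MspI releases by cutting at CCGG, after bisulfite has converted unmethylated cytosines. There were 6 control (Ctrl) and 16 EtOH-exposed libraries, each from the forebrain of a single embryo without visible defects. The study drew them from fewer litters than embryos, so some embryos share a mother; the labels do not say which, every test here takes embryos as independent, and p-values may be too small for that reason. A whole forebrain holds many cell types, and a change in their shares cannot be told apart from a change of methylation within cells.

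Libraries differed in ways that touch the values below. The summed coverage of all reported cytosines ran from 68126469 to 132488556 in controls and from 89179413 to 216223892 in EtOH-exposed libraries. The level at tiles (100 bp windows) that are nearly unmethylated, with a median level under 1%, ran from 0.672% to 1.52% in controls and from 0.260% to 2.54% in EtOH-exposed libraries, where 6 libraries lay below and 3 above every control. The coverage of tiles above 90% methylation in controls, relative to tiles under 1% in controls, was lower in EtOH-exposed libraries. Its median was -2.55 on the log2 scale against -1.54 in controls, and 14 of 16 EtOH-exposed libraries lay below the lowest control. The means were -2.68 and -1.44 (p = 0.00184, two-sided and exact over permutations of the embryos). No pair of libraries within a group matched within counting noise in tiles of intermediate level, and the closest, Ctrl 3 and Ctrl 4, differed by 3.48 times the binomial variance. Pairs across the groups were not compared.

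The assay read a part of each gene. The 10 genes and their flanks hold 5219 CpGs in the reference, of which 700 had a value in any sample, 256 in at least 5 embryos of each condition and 51 in all 22 embryos. Promoters, taken as 1000 bp upstream to 100 bp downstream of any start site, were covered in 4 genes (Adh5, Aldh1a2, Aldh1a3 and Aldh1b1), and the rest of the gene was covered in 8. No CpG of the distal upstream or downstream flanks was covered. RefSeq promoter sequences (GRCm38.p6), which run from 250 bases before to 50 bases after a start site, were found for 8 of the 10 genes with 10 start sites, and 4 of these 10 entries hold a CCGG; 52.8% of all 32851 entries do. The entry of Aldh1a2 holds 50 CpGs, more than 99.1% of entries, and 5 CCGG sites, while those of Adh1 and Cyp2e1 hold 6 and 4 CpGs and no CCGG. The entry of Cat holds 11 CpGs and 3 CCGG sites, yet its promoter had too few values to be analysed. The 250 bases before the start site of 5 genes are shown, 5' to 3', with every CpG in capitals, to set covered and uncovered promoters side by side. The first 3 belong to covered promoters and the last 2 to promoters without any value. Only a part of the bases shown was read: analysed CpGs began at -7 bp from the start site in Aldh1b1 and at chr3:138443006 in Adh5.
Aldh1a2, chr9:71215539-71215788, plus strand: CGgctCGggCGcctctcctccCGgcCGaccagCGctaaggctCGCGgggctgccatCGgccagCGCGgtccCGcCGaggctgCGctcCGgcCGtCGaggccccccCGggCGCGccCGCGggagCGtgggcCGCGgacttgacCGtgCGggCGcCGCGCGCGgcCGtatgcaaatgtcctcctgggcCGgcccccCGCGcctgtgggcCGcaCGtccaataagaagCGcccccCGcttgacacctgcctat
Aldh1b1, chr4:45798772-45799021, plus strand: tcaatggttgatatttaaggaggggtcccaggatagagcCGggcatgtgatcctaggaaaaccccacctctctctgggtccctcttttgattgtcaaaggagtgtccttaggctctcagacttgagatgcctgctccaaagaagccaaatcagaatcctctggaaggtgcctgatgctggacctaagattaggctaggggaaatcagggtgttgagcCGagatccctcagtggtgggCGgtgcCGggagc
Adh5, second start site, chr3:138442843-138443092, plus strand: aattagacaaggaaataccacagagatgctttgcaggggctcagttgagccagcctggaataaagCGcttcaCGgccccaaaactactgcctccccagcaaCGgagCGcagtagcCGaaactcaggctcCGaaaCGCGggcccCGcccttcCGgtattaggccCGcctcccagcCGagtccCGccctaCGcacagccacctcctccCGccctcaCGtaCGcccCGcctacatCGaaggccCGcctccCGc
Adh1, chr3:138277335-138277584, plus strand: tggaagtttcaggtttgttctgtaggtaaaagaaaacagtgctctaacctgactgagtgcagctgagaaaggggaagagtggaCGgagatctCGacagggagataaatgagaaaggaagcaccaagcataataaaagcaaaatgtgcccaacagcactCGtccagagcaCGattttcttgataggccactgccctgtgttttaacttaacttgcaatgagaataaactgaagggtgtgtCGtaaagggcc
Cyp2e1, chr7:140763569-140763818, plus strand: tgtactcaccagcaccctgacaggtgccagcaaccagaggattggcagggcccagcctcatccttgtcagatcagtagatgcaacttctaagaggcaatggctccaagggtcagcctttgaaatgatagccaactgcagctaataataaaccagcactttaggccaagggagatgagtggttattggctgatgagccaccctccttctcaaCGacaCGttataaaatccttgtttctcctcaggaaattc

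Among gene bodies, 3 stretches carry differences described below, and are shown in the same way from the RefSeq genome. The first lies in intron 1 of Aldh2 and holds 7 CpGs, 2 of them in CCGG sites. The second is the covered tile of intron 2 of Aldh1a1, and the third is the covered tile of intron 8 of Adh1.
Aldh2 intron 1, chr5:121592502-121592801, minus strand: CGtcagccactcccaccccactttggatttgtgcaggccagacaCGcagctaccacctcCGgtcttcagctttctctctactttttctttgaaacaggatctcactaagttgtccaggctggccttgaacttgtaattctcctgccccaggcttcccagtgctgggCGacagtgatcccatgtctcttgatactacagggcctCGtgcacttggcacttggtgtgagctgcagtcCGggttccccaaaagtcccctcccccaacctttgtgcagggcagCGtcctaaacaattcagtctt
Aldh1a1 intron 2, chr19:20531501-20531600, plus strand: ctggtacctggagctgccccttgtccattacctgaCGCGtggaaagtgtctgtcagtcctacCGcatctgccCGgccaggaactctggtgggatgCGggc
Adh1 intron 8, chr3:138290301-138290400, plus strand: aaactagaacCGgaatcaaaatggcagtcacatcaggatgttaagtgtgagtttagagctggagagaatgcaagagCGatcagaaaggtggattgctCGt

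In control forebrains the 256 CpGs fell into a low and a high class. The mean control level was under 5% at 183 CpGs, between 5% and 50% at 5, and 50% or more at 68, of which 60 were at 80% or more. The low class lay around start sites and the high class in gene bodies, as the plot of control levels by distance shows.

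**Figure D1:**
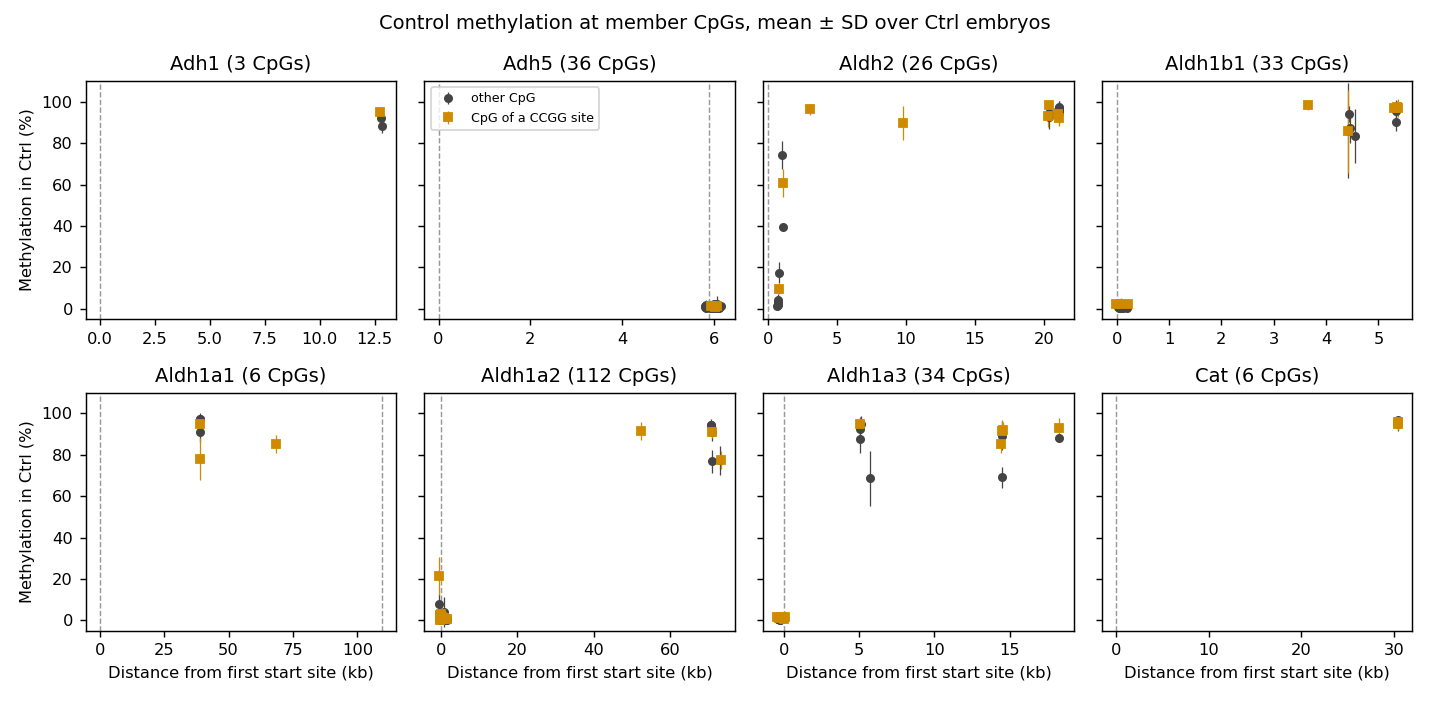
Methylation in Ctrl embryos (percent, mean with SD as bars) at each analysed CpG of the 8 covered genes against the distance from the first start site in kb; squares are CpGs of CCGG sites, circles other CpGs, and dashed lines start sites. Of the 256 CpGs, 183 lie under 5%, near start sites, and 68 at 50% or more, in gene bodies.

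The covered promoters were almost free of methylation in controls. Averaged over CpGs, the promoter of Adh5 was at 0.976% (22 CpGs), that of Aldh1a3 at 1.06% (20 CpGs), that of Aldh1b1 at 1.16% (10 CpGs) and that of Aldh1a2 at 1.87% (65 CpGs). The covered part of the Adh5 gene lay 6003 to 6147 bp from the first start site, just past the second one, and was at 1.10% (14 CpGs). The Aldh1a2 promoter held the only intermediate CpGs of a promoter, at -593 bp from the start site with 21.4% ± 9.31 (SD, n = 6) and at -505 bp with 7.82% ± 5.16 (n = 5). Promoters of Cat and Aldh2 had values in too few embryos to be analysed: 66 values at 13 CpGs of Cat, at most 8 embryos at a CpG, had a median of 0%, and 52 values at 7 CpGs of Aldh2, at most 9 embryos at a CpG, had a median of 10.6%.

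Gene bodies ranged from low to nearly full methylation in controls. Means over CpGs were 95.6% in Cat (6 CpGs of the 3' UTR), 91.8% in Adh1 (3 CpGs of intron 8), 90.6% in Aldh1a1 (6 CpGs of introns 2 and 4), 81.5% in Aldh1a3 (14 CpGs), 70.2% in Aldh2 (26 CpGs), 48.7% in Aldh1b1 (23 CpGs) and 17.7% in Aldh1a2 (47 CpGs). The lower means of Aldh1b1 and Aldh1a2 came from many covered CpGs just past the start site, since 11 of 23 and 38 of 47 of them lay under 5%, while the others lay at 50% or more. Aldh2 was the gene with a graded transition: the control level was under 5% at 685 to 734 bp past its start site, 17.5% at 789 bp, 9.63% at 803 bp and 74.3% at 1024 bp, then stood at 39.6% at 1068 bp and 60.9% at 1083 bp. For the genes without analysed CpGs, 133 values of Adh7 had a median of 94.7% and a lowest value of 52.3%, and 24 values of Cyp2e1 had a median of 88.8%.

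In EtOH-exposed embryos the promoter means were 0.940% for Adh5, 1.09% for Aldh1a3, 1.36% for Aldh1b1 and 1.94% for Aldh1a2. In the gene bodies they were 94.8% for Cat, 90.3% for Adh1, 83.6% for Aldh1a1, 80.4% for Aldh1a3, 66.8% for Aldh2, 48.2% for Aldh1b1 and 17.7% for Aldh1a2. The largest drops in these means were in Aldh1a1 and Aldh2.

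Differentially methylated regions (DMRs) were sought in tiles, with a logistic test of methylated against unmethylated reads, and a tile was called at a q-value (Benjamini-Hochberg over all tiles) under 0.01 with a difference of at least 10 percentage points. None of the 42 analysed tiles of the member genes was called, against 1299 of 114430 tiles (1.14%), of which 1240 were lower in EtOH-exposed forebrains. At q under 0.01 and any size, 9 of the 42 passed (6 lower), against 24890 of all tiles (21.8%). An exact permutation test on 1 level per embryo, which counts the spread between embryos, had p under 0.05 at 4 of the 42 tiles (3 lower), against 5121 of all (4.48%), an F test with overdispersion and limma at 2 each, against 6598 (5.77%) and 5093 (4.45%) of all tiles. None of these passed after adjustment over all tiles, the lowest adjusted p of a member tile being 0.843 with overdispersion, 0.994 with limma and 1 with the exact test. The median difference over the 42 tiles was -0.101 points, against -0.127 over all tiles, and over the 16 tiles at 50% or more in controls it was -0.445, against -0.844 over all such tiles.

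With values from all 22 embryos, 8 regions in 6 genes could be compared embryo by embryo, over 1 to 15 CpGs each, with 11 to 1417 reads at a CpG in an embryo. The exact permutation test of the group means had p under 0.05 in 1 of the 8, the Adh1 gene body, against 1815 of the 23553 regions of all genes (7.71%), of which 1732 were lower, and no region of any gene was below 0.05 after adjustment (lowest q = 0.158). A test of spread, the mean distance of an embryo from the median of its group, had p under 0.05 with a larger spread in EtOH-exposed embryos in 1 of the 8, the Aldh2 gene body (a single CpG), against 961 of the 23553 (4.08%), again with none after adjustment. A smaller spread passed in 158 of the 23553. The distances were taken once from the observed medians and then permuted, so the permutation p-values of spread are approximate. Distances from a median of 6 values tend to be shorter than from 16, which favours a larger spread in EtOH-exposed embryos.

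**Figure D2:**
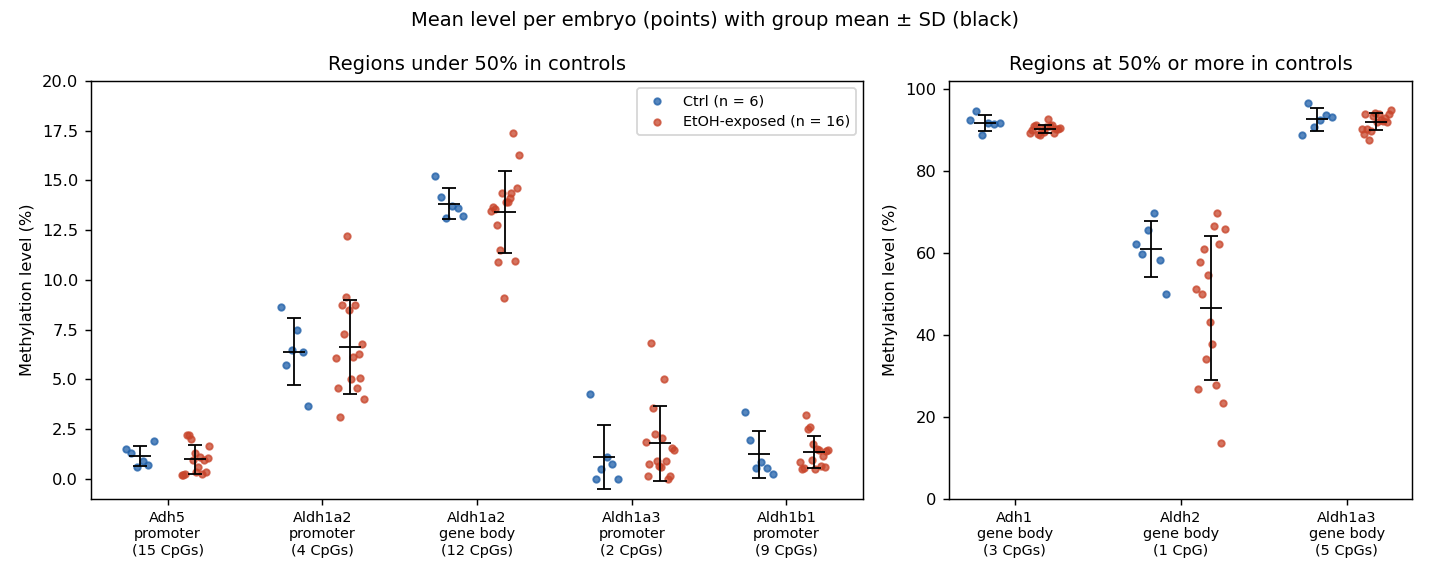
Methylation level (percent) of the 8 member regions covered in all 22 embryos, each point an embryo, with the group mean and SD. Promoter means lie at or under 6.63% in Ctrl and EtOH-exposed embryos, the Adh1 body is 1.47 points lower in the EtOH-exposed mean, and the Aldh2 body, a single CpG, runs from 13.5% to 69.8% in EtOH-exposed embryos against 50% to 69.8% in Ctrl.

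Adh1, the liver-type alcohol dehydrogenase, had 3 analysed CpGs, all in intron 8 and all in the tile printed above. The level over the 3 CpGs ran from 88.7% to 94.7% in controls with a median of 91.7%, and from 88.9% to 92.8% in EtOH-exposed embryos with a median of 90.2%. The groups overlapped throughout, and no EtOH-exposed embryo lay below the lowest control. The mean fell by 1.47 points, from 91.8% ± 1.91 (SD, n = 6) to 90.3% ± 1.02 (SD, n = 16), with p = 0.0270 in the exact permutation test and q = 0.565 over all regions. The difference sat mainly at the CpG of the CCGG site, chr3:138290311, which was at 95.1% ± 2.39 in controls and 91.8% ± 2.32 in EtOH-exposed embryos (exact p = 0.00773), with 7 of 16 below the lowest control. The other CpGs differed by -0.799 and -0.308 points, and without the CCGG site the region differed by -0.554 points (p = 0.506). Leaving out Ctrl 1 or Ctrl 2 gave p = 0.0603 and p = 0.135 with differences of -1.35 and -0.897 points. Replicates 1 to 6 of both conditions, taken as 6 pairs by number, gave -1.87 points (p = 0.0938 in a sign-flip test). Among the 13 libraries that share the controls' level at unmethylated tiles the difference was -1.33 points (p = 0.154).

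Aldh2, the acetaldehyde-clearing enzyme, had 26 analysed CpGs, of which 24 were lower in the EtOH-exposed mean. Its 7 CpGs of CCGG sites at 50% or more in controls were all lower, by 1.11 to 14.3 points, and 10 of its 12 other CpGs at that level were lower. The largest drop was at chr5:121592741 in intron 1 (the third CpG of the printed sequence), on the flank of the transition described above and the single Aldh2 CpG with a value in all 22 embryos. Controls 1 to 6 were at 62.1%, 59.7%, 65.7%, 69.8%, 58.2% and 50%, with 20 to 263 reads each. EtOH-exposed embryos ran from 13.5% to 69.8% with a median of 50.6%, and 7 of 16 lay below every control: 13.5%, 23.5%, 26.8%, 27.8%, 34.1%, 37.7% and 43.1%. The lowest, EtOH-exposed 14, had 5 methylated of 37 reads (Wilson 95% interval 5.91% to 28.0%), and the highest, EtOH-exposed 12, had 97 of 139 (61.7% to 76.8%). These intervals hold counting error alone, because PCR copies are not separate molecules.

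The mean at this CpG was 60.9% ± 6.79 (SD, n = 6) in controls and 46.6% ± 17.5 (SD, n = 16) in EtOH-exposed embryos, 14.3 points lower, and the test of the means did not pass (exact p = 0.0683, q = 0.693). The spread was larger, with a mean distance from the group median of 14.5 points against 4.94 in controls (permutation p = 0.0333, q = 0.806). This CpG alone made up the analysed gene body, and sets that hold more of its CpGs gave smaller differences. Over the 26 CpGs with 5 samples per condition the mean differed by -3.43 points (exact p = 0.0312) and the spread was larger by 1.87 points (permutation p = 0.0829). With at least 5 reads these values were -3.94 points (exact p = 0.0586) and 2.54 points (permutation p = 0.0521), and with the strands added first -6.43 points (exact p = 0.0703) and 4.42 points (permutation p = 0.0141). At the single CpG the spread difference was 9.59 points, against 9.39 points (p = 0.0763) in the 13 libraries that share the controls' level at unmethylated tiles, and it had p between 0.0510 and 0.0636 when Ctrl 1, Ctrl 2, Ctrl 5 or EtOH-exposed 2, 11 or 15 was left out. The 4 EtOH-exposed libraries with the lowest coverage of methylated tiles (14, 4, 6 and 5) were at 13.5%, 50%, 34.1% and 60.9%, and the 4 with the highest (1, 7, 16 and 12) at 51.2%, 54.7%, 65.8% and 69.8%. The 8 in between (15, 2, 11, 9, 8, 3, 13 and 10) were at 23.5%, 26.8%, 27.8%, 37.7%, 43.1%, 57.8%, 62.3% and 66.7%. The part of that coverage in the result was not tested.

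**Figure D3:**
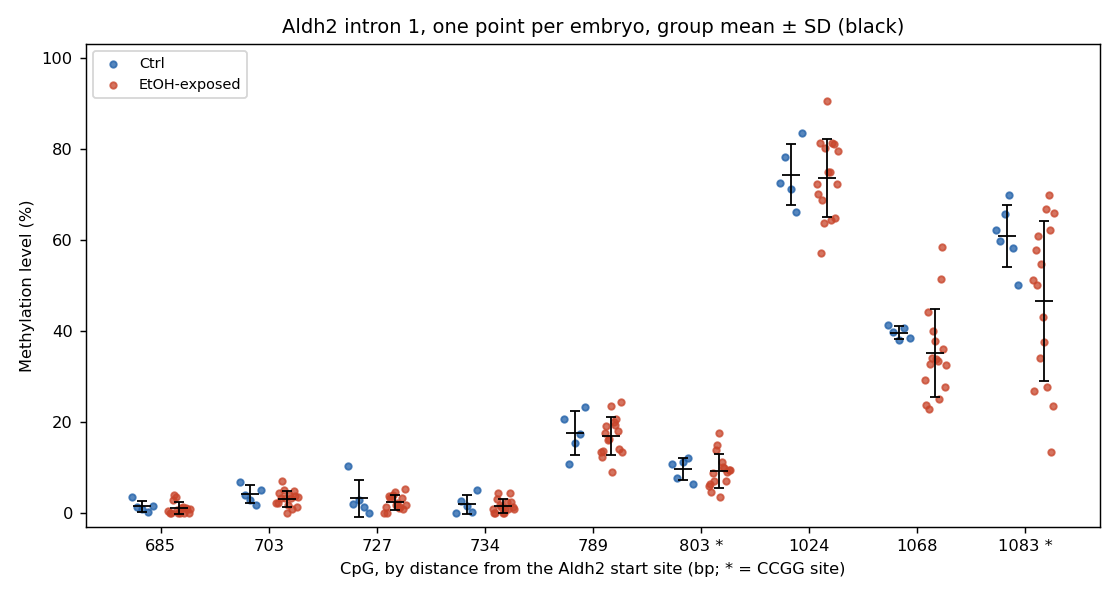
Methylation (percent) at the 9 analysed CpGs of Aldh2 intron 1 nearest the start site, by distance from the start site in bp, for each Ctrl and EtOH-exposed embryo. Group means, black with SD bars, climb from under 5% at 685 to 734 bp to 74.3% (Ctrl) at 1024 bp. The EtOH-exposed embryos fan out to both sides of the controls at 1068 bp. At 1083 bp 7 lie below every control, and the highest is level with the highest control, both at 69.8%.

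The next 2 analysed CpGs towards the start site passed neither test. At 1068 bp, 15 bp away and outside any CCGG, 5 controls stood between 37.9% and 41.2%, while 16 EtOH-exposed embryos ran from 22.9% to 58.5% with a median of 33.6%, 12 of them below and 3 above every control. The means, 39.6% ± 1.39 and 35.2% ± 9.72, did not differ beyond the spread (exact p = 0.330), and the spread was larger by 5.70 points without passing (permutation p = 0.0734). At 1024 bp the means were 74.3% ± 6.72 (n = 5) and 73.6% ± 8.63 (n = 16, exact p = 0.863), with permutation p = 0.423 for the spread. Farther into the intron, the tile chr5:121592501-121592600 had values in only 4 controls and 6 EtOH-exposed embryos. It was the single member tile called, 1 of 68, where 3 samples per condition were accepted (4818 of all 187376 tiles). Its controls were at 57.5%, 61.1%, 64.6% and 65.4%, and the EtOH-exposed embryos at 44.9%, 48.1%, 48.3%, 54.8%, 58.6% and 60.0%, of which 4 lay below every control. Its difference was -11.03 points weighted by reads (q = 0.00766) and -9.68 points between means of embryos (exact p = 0.0381), with 26 to 160 reads per embryo.

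Elsewhere in Aldh2 the CpGs of exons 8 and 9 were nearly fully methylated. The tile in coding exon 9, chr5:121572701-121572800 with 9 CpGs, ran from 94.0% to 97.3% in 6 controls and from 76.8% to 96.0% in 14 EtOH-exposed embryos with a median of 94.5%. The medians lay close while 6 of 14 exposed embryos were below the lowest control, and the means, 95.6% ± 1.13 and 91.9% ± 6.04, did not differ beyond the spread (exact p = 0.120). Weighted by reads the tile was 1.41 points lower (q = 1.1e-04 in the logistic test, which takes reads as independent). In intron 1 at chr5:121584033, the CpG of a CCGG site fell from 89.9% ± 8.09 (n = 5) to 79.8% ± 7.64 (n = 14; exact p = 0.0244), and at chr5:121573413 in intron 8 from 98.6% ± 1.88 (n = 5) to 94.5% ± 2.54 (n = 7; exact p = 0.0126); neither passed after adjustment over 592579 CpGs (q = 0.922 for both).

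Aldh1a1, a cytosolic retinaldehyde dehydrogenase, was lower in the EtOH-exposed mean at all 6 CpGs, by 1.29 to 12.5 points. Its tile in intron 2, printed above, was at 89.4%, 90.5%, 92.6%, 95.04% and 95.4% in 5 controls. The 10 EtOH-exposed embryos with a value ran from 75% to 95.1% with a median of 83.3%, and 6 lay below every control. The means were 92.6% ± 2.68 and 84.1% ± 8.02 (exact p = 0.0466; adjusted over all tiles the exact q was 1). Weighted by reads the difference was -2.62 points (q = 0.0248). When 1 sample was left out it ran from -4.47 to -1.77 points with unadjusted p up to 0.0819, and it was -4.47 points without EtOH-exposed 1 and -4.19 points without EtOH-exposed 12. It was -8.85 points among the libraries that share the controls' level at unmethylated tiles. At chr19:20531536 the spread was larger in EtOH-exposed embryos (77.5% to 100% against 92.9% to 100% in controls, permutation p = 3.3e-04, q = 0.678). That CpG had 11 to 253 reads per embryo with a median of 60, and the part of counting error in its spread was not tested. The 4 EtOH-exposed libraries with the lowest coverage of methylated tiles (4, 5, 6 and 14) gave no value in this tile. Of the 10 that did, the 4 with the highest coverage (12, 1, 7 and 3) were at 95.1%, 94.5%, 90.4% and 90.6%, and the 6 with lower coverage ran from 75% to 84.1% and were those below every control. The part of that coverage in the difference was not tested.

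Aldh1a2, which makes most retinoic acid of the early embryo, had 112 analysed CpGs, of which 101 were under 5% in controls. Its promoter region, 4 CpGs with values in all embryos, was at 6.40% ± 1.68 in controls and 6.63% ± 2.37 in EtOH-exposed embryos (difference 0.236 points, exact p = 0.827). This level was carried by the CpG at -593 bp, which ran from 4.17% to 31.1% in controls and from 9.76% to 41.9% in EtOH-exposed embryos. The gene body region, 12 CpGs, was at 13.8% ± 0.774 and 13.4% ± 2.06 (difference -0.412 points, exact p = 0.643), and the spread of 1.44 against 0.528 points did not pass (permutation p = 0.160). Weighted by coverage the body difference was -4.23 points with p = 0.00764, and without CpGs of CCGG sites it was 0.384 points higher with p = 0.430. The weighted value pools reads of CpGs near the start site, under 5% in controls, with those of chr9:71288949 and chr9:71289005, both at 77.4%. It therefore shifts with the share of reads from each, and the coverage of methylated tiles was lower in EtOH-exposed libraries. The part of that share in the difference was not tested. The tile with the smallest p in the body, in intron 1 at chr9:71217401-71217500, was higher by 1.67 points weighted by reads (q = 0.0246), at 0.902% ± 0.830 in 5 controls and 2.41% ± 1.18 in 11 EtOH-exposed embryos (exact p = 0.0243), with 9 of 11 above the highest control. It held 2 CpGs and 22 to 1347 reads per embryo, and Ctrl 2 and EtOH-exposed 2, 3, 8, 9 and 13 gave no value. The part of the library level at unmethylated tiles in this low value was not tested. The promoter tile with the smallest p, at chr9:71215801-71215900, differed by -0.405 points weighted by reads (q = 0.00595) and did not pass on embryo means (exact p = 0.888).

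In the far part of Aldh1a2, intron 12 was methylated, and 1 of its 8 analysed CpGs passed the exact test. At chr9:71289005, the CpG of a CCGG site, controls ran from 72.6% to 83.9% and EtOH-exposed embryos from 25.0% to 97.4% with a median of 76.3%. The lowest values were 25.0%, 42.9%, 46.8%, 54.5% and 55.6%, in EtOH-exposed 5, 8, 6, 4 and 14, and the highest was 97.4% in EtOH-exposed 16. The means of 77.4% ± 4.43 and 70.0% ± 19.7 did not differ beyond that spread (exact p = 0.389). At chr9:71286666, outside any CCGG, the level rose from 76.8% ± 5.66 (n = 5) to 82.4% ± 3.10 (n = 16; exact p = 0.00772, q = 0.922), with 10 of 16 above the highest control.

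Aldh1a3, a retinaldehyde dehydrogenase of the eye and forebrain, was low at its promoter and high in its introns in both groups. The promoter region, 2 CpGs, was at 1.09% ± 1.62 in controls and 1.79% ± 1.89 in EtOH-exposed embryos (exact p = 0.455). The difference of 0.692 points ran from 0.355 (without EtOH-exposed 4) to 1.33 (without Ctrl 1) and was 0.0137 with CpGs from 5 samples per condition, none of which passed. The body region, 5 CpGs of intron 1, was at 92.6% ± 2.73 and 92.1% ± 2.08 (exact p = 0.611). Its spread differed by -0.337 points (permutation p = 0.616), but by 1.75 points with CpGs from 5 samples per condition (permutation p = 0.00268). The tile with the smallest p of the promoter, chr7:66427701-66427800, was 0.594 points higher weighted by reads (q = 2.4e-04) with exact p = 0.504, and that of the body, chr7:66413001-66413100 across the edge of exon 4 and intron 3, was 2.57 points higher weighted by reads (q = 0.185), between 1.17 (without Ctrl 2) and 3.53 points (without Ctrl 5). In coding exon 7, the CpG of a CCGG site at chr7:66409177 fell from 93.1% ± 4.75 (n = 5) to 85.6% ± 6.97 (n = 16; exact p = 0.0384, q = 0.922), and 10 of 16 lay below every control. A CpG 25 bp away and outside any CCGG was at 88.0% ± 2.01 and 85.5% ± 4.54 (exact p = 0.261).

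Aldh1b1, the mitochondrial relative of Aldh2, was lower in the 3' UTR of exon 2 in most EtOH-exposed embryos. The tile chr4:45804301-45804400, 5 CpGs, was at 92.4%, 94.0%, 95.7%, 96.2% and 97.7% in 5 controls. EtOH-exposed embryos ran from 84.6% to 96.5% with a median of 91.7%, and 11 of 16 lay below every control. The means were 95.2% ± 2.05 and 91.2% ± 2.95 (exact p = 0.0113, exact q = 1), and weighted by reads the difference was -3.43 points (q = 1.2e-06), between -3.99 and -3.06 when any embryo was left out. Of its 2 CpGs of CCGG sites, the one at chr4:45804323 fell from 96.7% ± 3.24 to 91.4% ± 4.12 (exact p = 0.0150), with 11 of 16 below every control. The other, at chr4:45804369, was at 97.6% ± 2.61 and 91.9% ± 6.99 and did not pass (exact p = 0.0912). The promoter region of Aldh1b1, 9 CpGs, was at 1.24% ± 1.18 and 1.35% ± 0.823 and did not pass (exact p = 0.814), and at its tile with the smallest p the embryo means were 1.08% ± 1.06 and 1.2004% ± 0.792 (exact p = 0.780). Weighted by reads that tile turned to a difference of -0.579 points (q = 2.8e-05), which ran from -0.830 (without Ctrl 5) to -0.145 points (without Ctrl 2, unadjusted p = 0.312). In coding exon 2, Ctrl 1 stood apart at chr4:45803439 and chr4:45803447 with 50% and 45%, where the other 4 controls were between 92.6% and 97.9%.

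Adh5 and Cat had no region, tile or CpG past the exact test. The Adh5 promoter region, 15 CpGs, was at 1.14% ± 0.505 in controls and 0.969% ± 0.725 in EtOH-exposed embryos (difference -0.167 points, exact p = 0.613), and its tiles with the smallest p differed, weighted by reads, by 0.171 (promoter) and -0.224 points (body). The embryo means of the body tile had the other direction, 1.14% ± 0.715 and 1.23% ± 1.25 (exact p = 0.892). The Cat tile in its 3' UTR, chr2:103454701-103454800, was at 95.8% ± 1.64 (n = 5) and 94.7% ± 2.46 (n = 16; exact p = 0.362), and weighted by reads it differed by -0.706 points (q = 0.239). That value ran from -1.18 (without Ctrl 1) to -0.193 points (without Ctrl 2) and was -1.56 points with replicates 1 to 6 of both conditions.

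At the promoters of Adh5 and Aldh1b1 the values in EtOH-exposed embryos moved with the level of the library at unmethylated tiles. The 6 EtOH-exposed libraries with 0.260% to 0.313% at all nearly unmethylated tiles had 0.183% to 0.324% at the Adh5 promoter, the 7 libraries with 0.834% to 1.38% had 0.615% to 1.66%, and the 3 libraries with 2.41% to 2.54% had 1.98% to 2.23%. At the Aldh1b1 promoter the same libraries had 0.489% to 0.831%, 0.935% to 1.76% and 2.48% to 3.20%. In controls, the 4 libraries at 0.672% to 0.684% had 0.247% to 0.844% at the Aldh1b1 promoter and the other 2, at 1.499% and 1.52%, had 1.94% and 3.33%. At the Adh5 promoter Ctrl 6, with 0.684% at unmethylated tiles, had the highest control value, 1.90%. At the Aldh1a3 promoter, 2 CpGs, the ranges of the same EtOH-exposed libraries overlapped, 0.127% to 1.83%, 0% to 5%, and 2.24% to 6.85%, and 1 of the 2 controls near 1.5% stood at 0%. At all 3 promoters the range within a condition was wider than the difference between the conditions.

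**Figure D4:**
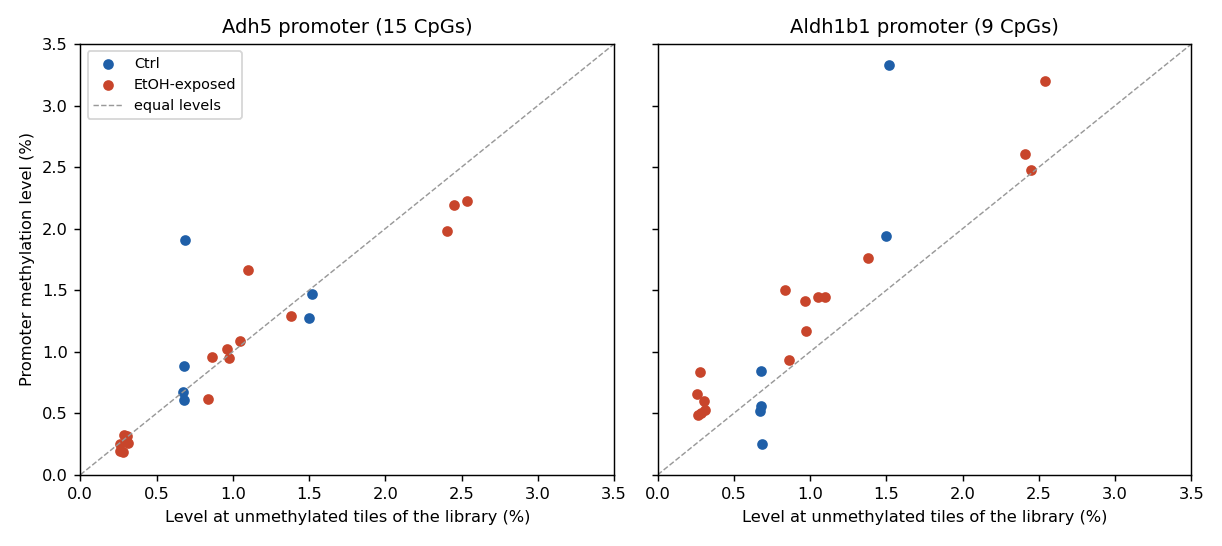
Methylation (percent) of the Adh5 and Aldh1b1 promoter regions in each embryo against the level of its library at nearly unmethylated tiles (percent); points are Ctrl and EtOH-exposed embryos. The EtOH-exposed libraries form 3 clusters on the horizontal axis, 0.260% to 0.313%, 0.834% to 1.38% and 2.41% to 2.54%, and the promoters rise with them.

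Over single CpGs, 12 of the 256 had an exact p under 0.05 (8 lower in EtOH-exposed embryos), against 29975 of all 592579 analysed CpGs (5.06%), in genes or not. A larger spread in EtOH-exposed embryos had p under 0.05 at 7 of the 256, against 17587 (2.97%). Neither measure had a CpG below 0.05 after adjustment over all CpGs, among the members or elsewhere. The members' shares lay near those of all CpGs.

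Fragments end at the CCGG sites that MspI cuts, and among CpGs at 50% or more in controls those inside such sites differed more than the others. Under 50% in controls, 10 of 27 such member CpGs were lower in EtOH-exposed embryos (median difference 0.174 points), against 75 of 161 others (0.024 points). At 50% or more in controls, 22 of 26 such member CpGs (84.6%) were lower in EtOH-exposed embryos with a median difference of -4.86 points, while 28 of 42 other CpGs (66.7%) were lower with a median of -0.806. All CpGs gave the same picture, with 83.8% lower and a median of -3.23 points at 74615 CpGs of CCGG sites, and 64.8% lower and -0.924 points at 115320 others. The deviation of an embryo from the control means, averaged over the member CpGs of CCGG sites, was -12.1 to -10.1 points in the 4 EtOH-exposed libraries with the lowest coverage of methylated tiles (4, 5, 6 and 14). It was -10.4 to -0.272 points in the 8 libraries in between, -2.44 to 1.14 in the 4 with the highest coverage (1, 7, 12 and 16), and -1.16 to 1.25 in controls. At the other member CpGs the 4 libraries with the lowest coverage were at -5.65 to -2.44 points, and the 8 in between at -3.44 to 1.18. The 4 with the highest were at -0.641 to 1.19, and controls at -2.67 to 1.63, a range that overlaps that of the lowest 4. Controls set the means from which they deviate, which narrows their ranges. The averages also hold different CpGs: for CCGG sites 26 in Ctrl 1, 17 in EtOH-exposed 6 and 11 in Ctrl 6. Averaged over these member CpGs, the drop thus moved with the coverage of methylated tiles, which differed between the conditions. Single members did not all follow it. At the Aldh1b1 tile of the 3' UTR, EtOH-exposed 4, 5, 6 and 14 were at 91.6%, 94.5%, 92.1% and 91.1%. EtOH-exposed 1, 7, 12 and 16 were at 84.6%, 92.7%, 87.8% and 91.8% there. Over the Adh1 body, which averages CpGs inside and outside a CCGG site, the former ran from 88.9% to 91.3% and the latter from 89.3% to 91.3%. At its CpG of the CCGG site EtOH-exposed 4, 5, 6 and 14 were at 91.5%, 89.5%, 86.7% and 88.9%. EtOH-exposed 1, 7, 12 and 16 were at 90.8%, 93.4%, 92.6% and 89.4% at that CpG. The part of that coverage in the drop was not tested.

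**Figure D5:**
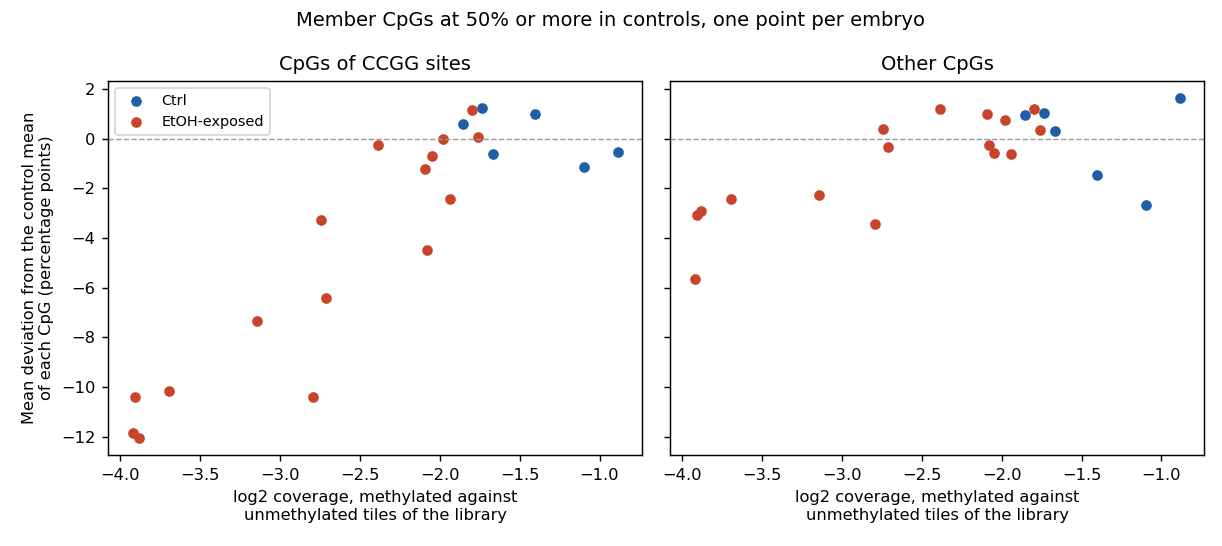
Mean deviation from the control means (percentage points) over member CpGs at 50% or more in controls, for CpGs of CCGG sites and for other CpGs, against the log2 coverage of methylated relative to unmethylated tiles; each point is an embryo. The 4 EtOH-exposed libraries at the left, -3.92 to -3.70, lie at -12.1 to -10.1 points for CpGs of CCGG sites, and the 4 at the right lie within -2.44 to 1.14.

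Other genes of the same pathways were counted in the same tile test, which called 1.14% of all tiles. Of 18 other alcohol and aldehyde dehydrogenases, 14 had an analysed tile, and none of their 67 tiles was called (median difference 0.110 points). Of 14 genes that handle hydrogen peroxide, superoxide and acetate, 13 had a tile and none of 62 was called (median 0.320 points). Of 23 genes of retinoid metabolism, binding and receptors, 19 had a tile and 3 of 149 tiles (2.01%) were called, all lower, with a median over the list of -0.0350 points. All 3 lay in coding exon 7 of Cyp26b1, which encodes an enzyme that degrades retinoic acid.

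At Cyp26b1 the tile chr6:84574301-84574400 was at 25.3% ± 5.31 (n = 6) in controls and 15.6% ± 6.74 (n = 16) in EtOH-exposed embryos, where it ran from 5.70% to 28.2% and 7 of 16 lay below every control (exact p = 0.00544, exact q = 1). The tile chr6:84574501-84574600 was at 37.7% ± 6.89 (n = 5) and 32.4% ± 9.402 (n = 15; exact p = 0.268). The tile chr6:84574601-84574700 was at 52.4% ± 6.05 (n = 5) and 42.4% ± 13.1 (n = 15; exact p = 0.119). Weighted by reads these tiles were lower by 10.99, 12.8 and 14.5 points, and the first alone had an exact p under 0.05.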

How the data were processed

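Genomic DNA of 22 forebrains, 6 Ctrl and 16 EtOH-exposed, had been profiled by rRRBS. According to the submitters' processing notes, the authors trimmed reads with Trim Galore 0.3.3 and aligned them to mm10 with BSMAP 2.90. Each deposited file gives, for a cytosine and strand, the read count covering it and the percentages of those reads that are methylated and unmethylated, as the authors computed them per embryo, without pooling or normalization.

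Methylated reads were the count times the percentage, rounded to whole reads. Positions with at least 10 reads on a strand were kept and the strands of a CpG added. Sites on chromosomes 1 to 19 were placed on RefSeq GRCm38.p6. Tiles were 100 bp windows with at least 2 CpGs in a sample and values in at least 5 samples of each condition, tested by logistic regression of methylated on total reads (likelihood ratio of the model with and without exposure), chosen here since the study's methods name MethylKit but not its test, with Benjamini-Hochberg adjustment over all tiles. Alternatives were an F test with overdispersion and limma 3.58.1 (R 4.3.3) on log2 ratios of methylated to unmethylated reads, with an offset of 0.5. Regions used CpGs with values in all 22 samples. Group means were compared by exact two-sided permutation over all 74613 ways of choosing 6 of 22 embryos, whose smallest possible p is 1.3e-05. Mean distances from the group median were permuted in the same ways without taking the medians anew, so that test of spread is approximate. The same tests ran on every gene. Other coverage and sample minimums, weights, CpG sets, promoter widths, library groups, a replicate block and each sample left out in turn were tried. For regions the replicate block was a sign-flip test of the 6 differences between embryos of the same replicate number. A library group joins libraries whose levels at unmethylated tiles, placed in order, differ by less than 1.3 times between neighbours; the group with all controls also holds 7 EtOH-exposed libraries. Computation used Python 3.11.15, numpy 2.4.6, scipy 1.17.1 and pandas 2.3.3. The logistic test, the exact test of means and the test of spread were tried on simulated data. Simulated tiles held binomial counts alone, without the spread between embryos of these data. The F test, limma and the replicate block were not simulated.

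The members and gene lists were chosen with earlier results of these data known. All members were named. For each member's promoter and body 1 tile was named: the called one that differed most or, with none called, that of smallest p. Other pathway genes were named if they had a called tile, at most 8, in order of difference. Single CpGs and the Aldh2 tile seen with 3 samples per condition were named after their values were seen. Replicate numbers do not pair embryos. Sex and litter were not in the labels and were not used.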

Additional observations from a re-analysis of the deposited data

Results flagged for a closer look

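Control groups of the 20 member regions and tiles with 5 or 6 values were searched for a sample whose gap to the nearest other exceeds Dixon's 95% critical value, which chance passes in about 1 of 20 groups; 2 of the 20 did. At the Aldh1a3 promoter region Ctrl 1 was at 4.286% where the other controls ran from 0% to 1.075%. At the Aldh1a2 promoter tile Ctrl 2 was at 2.212% where the others ran from 0.848% to 1.32%. Ctrl 1 and Ctrl 2 are the control libraries with the highest level at unmethylated tiles, 1.52% and 1.499%.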

How the results depend on the processing

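Of 671 alternative values of single regions and tiles, 628 were counted as kept, 14 as no longer passing, 5 as newly passing and 24 as turned in sign. For regions, a kept value held its direction and its side of the threshold. For tiles the direction alone was compared, so the 14 and the 5 are regions. With a sample left out, logistic p (unadjusted) reached 0.0830 at the Adh1 tile, 0.0819 at the Aldh1a1 tile and 0.312 at the Aldh1b1 promoter tile. At the Aldh1a3 body tile it fell to 0.0323. No member tile was called under any alternative except with 3 samples per condition, which called 1. The count of regions past the exact test, 1 as reported, was 0 of 6 without CpGs of CCGG sites and 0 of 8 in the library group with all controls. It was 2 of 8 when weighted by coverage (the Aldh1a2 body, described above, among them) and 2 of 12 with CpGs from 5 samples per condition (Aldh2 among them). When a sample was left out it was 0 to 2 (0 without Ctrl 1 or Ctrl 2, 2 without EtOH-exposed 10, 12 or 16, where Aldh2 also passed at -15.9 to -15.6 points). The count of regions with a larger spread, also 1, was 0 of 12 with at least 5 reads, 0 of 5 with at least 20 reads and 0 of 6 without CCGG sites (neither of which leaves an Aldh2 region), 0 of 8 in the library group, 2 of 12 with CpGs from 5 samples per condition (Aldh2 not among them), and 0 to 1 when a sample was left out.

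Differences near 0 turned sign. The Aldh1b1 promoter gave -0.00905 points with at least 5 reads and with strands added first, -0.392 with at least 20 reads, and -0.0926 to 0.524 when a sample was left out. The Aldh1a2 promoter gave -0.123 without CCGG sites, -0.634 weighted by coverage, and -0.307 to 0.687 when a sample was left out; its tile gave -0.550 to 0.0434. The Aldh1a2 body gave 0.384 without CCGG sites, 0.0752 with CpGs from 5 samples per condition and 0.412 in the library group. The Aldh1a3 body gave 1.05 in the library group and -1.33 to 0.259 when a sample was left out. Its spread difference was -0.563 to 0.178 when a sample was left out. With CpGs from 5 samples per condition that spread difference was 1.75, past the threshold (permutation p = 0.00268). The Adh5 tiles gave -0.0814 to 0.330 (promoter) and -0.381 to 0.185 (body), and the body tile 0.00959 with replicates 1 to 6 of both conditions. The cause was not tested. The count of member CpGs past the exact test, 12, was 7 with at least 20 reads, and that with a larger spread, 7, was 2 in the library group.

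Replicate numbers 1 to 6 occur in both conditions, but embryos with the same number did not deviate together (correlations of -0.150 to 0.173 over 37944 tiles). With the replicate block 0 of 36 member tiles were called, as without it in the same 12 samples, 0 regions passed, and the Adh5 promoter turned to 0.0363 points. The alternatives for tiles named by the rule, for the spread differences of single gene bodies and for single CpGs, and the exact test of tiles, were chosen after seeing the data. Coverage limits these values: levels of single CpGs rest on as few as 10 reads in an embryo, and 2 of the 10 genes and 6 promoters had values in too few embryos, or none, to be analysed.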
